A study of Saccharomyces cerevisiae with 8 samples.

Results

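Genes of maltose, isomaltose and sucrose use were described in *Saccharomyces cerevisiae* W303, a laboratory yeast. They were chosen by name from the 5798 genes of the deposited table: MAL31, MAL32, MAL33, MAL11, MAL12, MAL13, IMA1 and SUC2, 8 genes in all. Total RNA had been sequenced from exponentially growing cells of 4 strains with 2 libraries each. GPD-SIR3 carries SIR3 under the GPD promoter, a strong constitutive promoter, GPD-SIR3-A2Q carries the A2Q form of Sir3 under the same promoter, SIR3Δ lacks SIR3, and WT is the wild type. SIR3 encodes a subunit of the SIR complex, which silences genes near chromosome ends and at the silent mating-type cassettes. Nothing in the labels says that a strain's pair of libraries stems from different cultures or clones, so the p-values reflect library-to-library spread, which may be technical. For the medium's carbon source, and for the allele at the native SIR3 locus of the GPD strains, the sources used here give nothing.

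Yeast takes up maltose through a proton symporter, the maltose permease, and splits it into glucose inside the cell with maltase, an alpha-glucosidase. A MAL locus holds 1 gene for each of these proteins beside a gene for the activator that switches them on when maltose is present. Sucrose is instead mostly split outside the cell by invertase, which SUC2 encodes. Glucose represses both systems, through the repressor Mig1 among others, and MAL loci lie close to chromosome ends. The table holds 2 MAL loci. MAL3 lies at the right end of chromosome II with MAL31 (permease), MAL32 (maltase) and MAL33 (activator). MAL1 lies at the right end of chromosome VII with MAL11 (permease), MAL12 (maltase) and MAL13 (activator), and IMA1, an isomaltase gene, is next to it.

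Levels are the authors' scaled read counts, which are read counts multiplied by 1 factor per library so that genes sum to 7006670 in each library. The depth on genes was 7006670 to 18077542 reads per library. As a check of the labels, SIR3 averaged 12298 ± 2217 in GPD-SIR3, 13174 ± 60.2 in GPD-SIR3-A2Q, 38.0 ± 1.65 in SIR3Δ and 466 ± 25.5 in WT (SD, n = 2 each). The filter on low values (10 or more in 2 or more libraries) was passed by 6 of the 8 genes and not by MAL12 and MAL32. Genes were called with limma over 5473 genes where the two-sided p, adjusted by Benjamini-Hochberg, was below 0.05, a threshold passed by 1.32% of genes for GPD-SIR3 against WT, 0.749% for GPD-SIR3-A2Q against WT and 0.968% for SIR3Δ against WT. It was passed by 1.46% for GPD-SIR3 against GPD-SIR3-A2Q and 4.20% for GPD-SIR3 against SIR3Δ. These comparisons share libraries: the GPD-SIR3 pair enters 3 of them, and so does the WT pair. With 2 libraries against 2, an exact permutation test of a single gene cannot go below p = 0.333.

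The control regions of the genes show what the loci share. The stretches below come from the reference genome of strain S288C, build R64, and may differ in W303. Capitals mark matches, on either strand, to 2 published binding motifs, that of the MAL activator and that of Mig1 (searched as GCGGGG or CCGGGG or GTGGGG or CTGGGG). The divergent promoter between MAL31 and MAL32 (chrII:804921-805070, plus strand, 430 to 281 bases before the MAL32 start) and that between MAL11 and MAL12 (chrVII:1076169-1076318, plus strand, the same distances before the MAL12 start) are set against each other because they drive the maltase and permease genes of the 2 loci.
MAL32 promoter: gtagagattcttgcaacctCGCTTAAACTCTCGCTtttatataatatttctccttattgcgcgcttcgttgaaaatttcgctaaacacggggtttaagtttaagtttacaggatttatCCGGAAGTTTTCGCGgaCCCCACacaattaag
MAL12 promoter: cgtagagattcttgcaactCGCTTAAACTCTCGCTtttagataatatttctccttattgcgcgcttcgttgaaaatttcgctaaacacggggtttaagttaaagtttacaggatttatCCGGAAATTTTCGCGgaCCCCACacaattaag
The 2 stretches are identical at 146 of 149 aligned bases (98.0%). In both, the activator motif matched at 411, 410 and 312 bases before the start, the first 2 matches overlapping each other, and the Mig1 motif matched at 295 bases before it.

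The promoters of SUC2 (chrIX:36865-36994, plus strand, 520 to 391 bases before its start) and of MAL33 (chrII:800323-800422, plus strand, 200 to 101 bases before its start) are shown for their Mig1 matches, in capitals.
SUC2 promoter: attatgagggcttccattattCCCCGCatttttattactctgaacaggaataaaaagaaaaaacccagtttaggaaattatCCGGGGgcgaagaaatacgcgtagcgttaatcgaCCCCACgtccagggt
MAL33 promoter: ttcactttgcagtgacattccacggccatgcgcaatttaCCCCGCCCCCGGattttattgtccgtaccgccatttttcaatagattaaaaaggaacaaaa
Mig1 matches lay 499, 439 and 405 bases before the SUC2 start and 161 and 155 bases before the MAL33 start, the MAL33 pair lying end to end. Within 600 bases upstream, MAL33 had 4 matches, SUC2 and IMA1 3 each, MAL31 2, and MAL32, MAL11, MAL12 and MAL13 1 each. Of 5772 genes, 27.9% had at least 1 match and 5.25% at least 2. The activator motif matched 3 times upstream of MAL31, MAL32, MAL11 and MAL12, 2 times upstream of IMA1 and SUC2, once upstream of MAL33 and not upstream of MAL13, in a window where 55.4% of genes had at least 1 match and 24.3% at least 2. The windows of MAL31 and MAL32 overlap, as do those of MAL11 and MAL12, so the same match can count for both genes of a pair. A match describes the letters only.

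MAL33 (YBR297W, chromosome II, 800523 to 801929, plus strand, 11.3 kb from the right end) had the lowest log2 fold changes of the 6 tested genes in all 3 comparisons of GPD-SIR3, but without GPD-SIR3 1 its value against WT was -0.95 and that of MAL31 was -1.19. It is the activator gene of the MAL3 locus, and whether its product is active in W303 was not tested. MAL33 had 21.1 and 57.0 scaled reads in GPD-SIR3, against 120.1 and 139 in GPD-SIR3-A2Q, 129 and 123 in SIR3Δ, and 85.6 and 144 in WT. Both GPD-SIR3 libraries lay below all 6 others, and the other strains overlapped one another. The means were 39.1 ± 25.4 in GPD-SIR3, 129 ± 13.2 in GPD-SIR3-A2Q, 126 ± 4.26 in SIR3Δ and 115 ± 41.3 in WT (SD, n = 2 each). The GPD-SIR3 libraries stood far apart from each other, library 1 below library 2.

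MAL33 fell in GPD-SIR3 against SIR3Δ, by 3.54-fold (log2 fold change -1.83 ± 0.41 SE; limma, Benjamini-Hochberg adjusted p = 0.0443). Set against GPD-SIR3-A2Q it was 3.63-fold lower (-1.86 ± 0.41 SE; limma, adjusted p = 0.0916) and against WT 3.13-fold lower (-1.65 ± 0.41 SE, 95% interval -2.58 to -0.71; limma, adjusted p = 0.166), neither of them past the threshold. The call ended when any of 5 of the 8 libraries was left out (limma, adjusted p = 0.0689 without GPD-SIR3 1, 0.0962 and 0.0961 without either GPD-SIR3-A2Q library, 0.177 and 0.154 without either SIR3Δ library). It also ended with a filter on the mean of at least 50 (limma, adjusted p = 0.0508) and with the 2 strains fitted alone (limma, adjusted p = 0.120). Without GPD-SIR3 1 the log2 fold changes of GPD-SIR3 were -1.13 against SIR3Δ, -1.17 against GPD-SIR3-A2Q and -0.95 against WT. Without GPD-SIR3 2 these log2 fold changes were -2.52 against SIR3Δ, -2.56 against GPD-SIR3-A2Q and -2.34 against WT. GPD-SIR3-A2Q against WT (0.22 ± 0.41 SE) and SIR3Δ against WT (0.18 ± 0.41 SE; limma, adjusted p = 0.949) gave small differences with wide errors.

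Genes of cell identity differed in the same comparison. Of 14 genes of haploid, alpha or a cells, 12 were tested and 10 rose in GPD-SIR3 against SIR3Δ (median log2 fold change 4.90, against 0.13 over all genes; limma). Among them were MF(ALPHA)2 and MF(ALPHA)1, which encode the alpha-factor pheromone (7.92 ± 0.17 SE and 9.49 ± 0.34 SE), STE3, the receptor for a-factor (5.46 ± 0.16 SE), and STE4, a subunit of the pheromone-response G protein (3.77 ± 0.14 SE). STE2 and BAR1, genes of a cells, were tested and not called (0.50 ± 0.42 SE and 0.10 ± 0.31 SE). MFA1 and MFA2, also genes of a cells, were too low to test. The same list gave 10 higher against GPD-SIR3-A2Q, and 10 lower in each of GPD-SIR3-A2Q and SIR3Δ against WT. It gave no limma, edgeR or DESeq2 call between GPD-SIR3 and WT, where STE3 had an unadjusted p below 0.05. Its part in the MAL33 result was not tested.

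MAL13 (YGR288W, chromosome VII, 1070293 to 1071714, plus strand, 19.2 kb from the right end) is the activator gene of the MAL1 locus, its product's activity likewise not tested. It had 86.4 and 90.0 scaled reads in GPD-SIR3, against 98.5 and 130.1 in GPD-SIR3-A2Q, 98.4 and 121 in SIR3Δ, and 102 and 119 in WT. The GPD-SIR3 pair was again the lowest, by a small margin. The log2 fold changes of GPD-SIR3 were -0.32 ± 0.21 SE against WT, -0.36 ± 0.21 SE against GPD-SIR3-A2Q and -0.31 ± 0.21 SE against SIR3Δ (limma, adjusted p = 0.756, 0.568 and 0.419).

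MAL31 (YBR298C, chromosome II, 802631 to 804475, minus strand, 8.71 kb from the right end) is the permease gene of the MAL3 locus. MAL31 had 49.0 and 57.0 scaled reads in GPD-SIR3, against 59.5 and 111 in GPD-SIR3-A2Q, 132 and 107 in SIR3Δ, and 146 and 118 in WT. Both GPD-SIR3 libraries lay below the other 6, with 1 GPD-SIR3-A2Q library close above. MAL31 averaged 53.0 ± 5.63 in GPD-SIR3, 85.4 ± 36.7 in GPD-SIR3-A2Q, 119 ± 17.5 in SIR3Δ and 132 ± 20.2 in WT (SD, n = 2 each).

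MAL31 did not pass limma's threshold in any comparison. It was 2.45-fold lower in GPD-SIR3 than in WT (-1.29 ± 0.29 SE, 95% interval -1.96 to -0.63; limma, adjusted p = 0.100) and 2.22-fold lower in GPD-SIR3 than in SIR3Δ (-1.15 ± 0.29 SE; limma, adjusted p = 0.0695). The difference from GPD-SIR3-A2Q was smaller (-0.61 ± 0.29 SE; limma, adjusted p = 0.516). GPD-SIR3-A2Q itself stood at -0.68 ± 0.29 SE against WT (limma, adjusted p = 0.714), and SIR3Δ at -0.14 ± 0.29 SE (limma, adjusted p = 0.945). With 1 library left out at a time, MAL31 in GPD-SIR3 ran from -1.45 to -1.14 against WT and kept its sign against SIR3Δ. Whether it passed the threshold in these comparisons depended on which library was left out, so these fits do not make it a call.

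MAL11 (YGR289C, chromosome VII, 1073963 to 1075813, minus strand, 15.1 kb from the right end) is the permease gene of the MAL1 locus. It had 61.6 and 108 scaled reads in GPD-SIR3, against 81.1 and 81.8 in GPD-SIR3-A2Q, 99.2 and 78.5 in SIR3Δ, and 130.1 and 72.9 in WT. The 4 strains overlapped, and the WT libraries alone spanned 72.9 to 130.1. GPD-SIR3 differed from WT by -0.25 ± 0.33 SE (limma, adjusted p = 0.893), from SIR3Δ by -0.11 ± 0.33 SE and from GPD-SIR3-A2Q by 0.00 ± 0.33 SE.

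**Figure D1:**
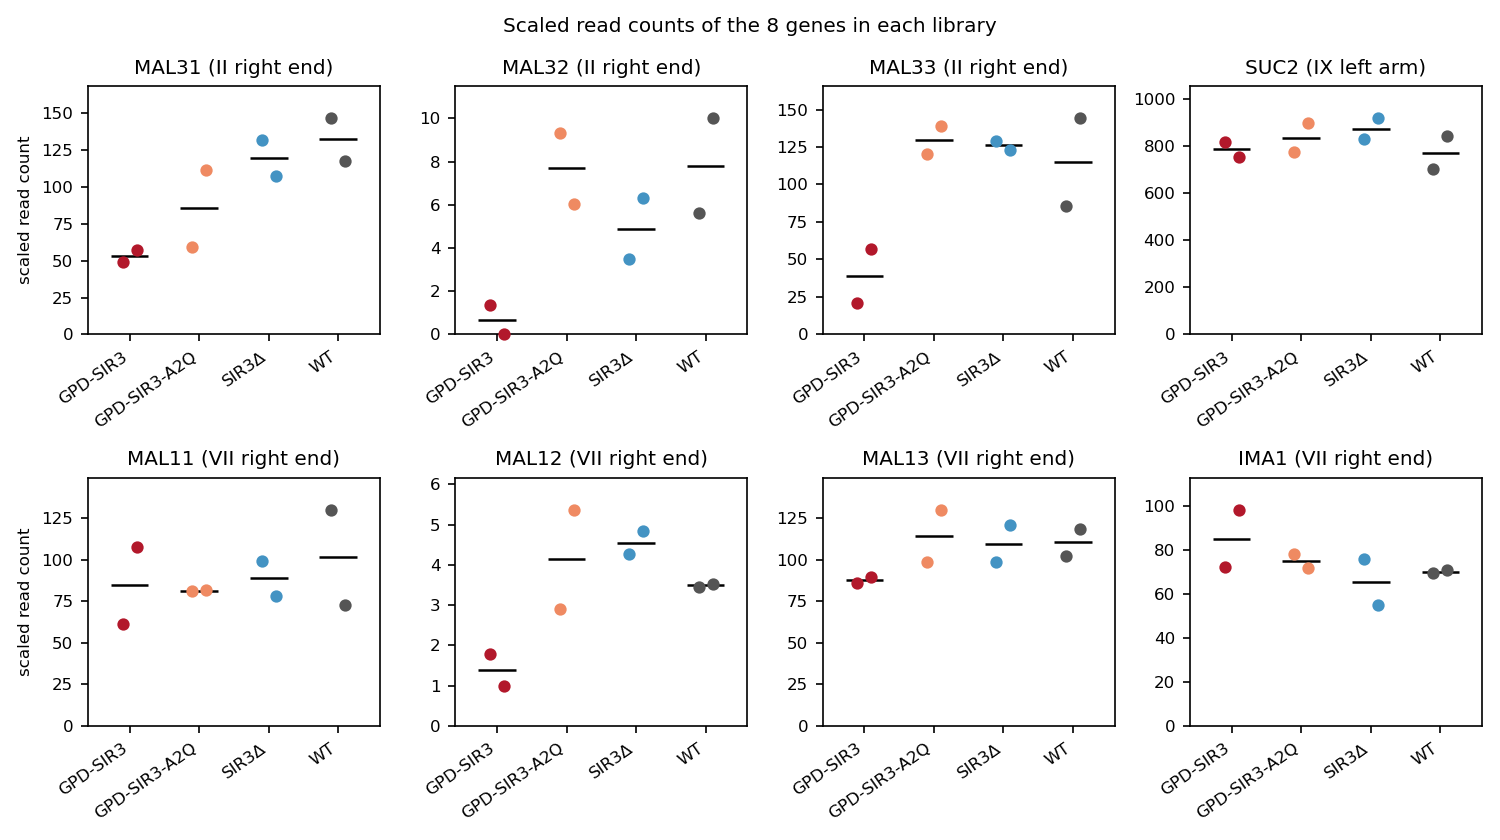
Scaled read counts (vertical axes, different ranges) of the 8 genes in each library. In each pair of points the left is library 1 and the right library 2, and the bar is the mean of the strain. MAL31 and MAL33 have both GPD-SIR3 libraries (49.0 and 57.0, 21.1 and 57.0) below all others. So do MAL13, by a small margin, and MAL32 and MAL12, at low counts, while MAL11, IMA1 and SUC2 have strains that overlap.

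Whether the maltase genes were counted apart is not known. MAL32 (YBR299W, chromosome II, 805351 to 807105, plus strand, 6.08 kb from the right end) and MAL12 (YGR292W, chromosome VII, 1076599 to 1078353, plus strand, 12.6 kb from the right end) differ at 8 of 1755 coding bases in the reference (99.5% identity), with an identical run of 492 bases. The stretch with 3 of the 8 differences, coding bases 139 to 258, shows how close they are; capitals mark the bases that differ (chrVII:1076737-1076856 and chrII:805489-805608, plus strand, S288C, R64).
MAL12 coding: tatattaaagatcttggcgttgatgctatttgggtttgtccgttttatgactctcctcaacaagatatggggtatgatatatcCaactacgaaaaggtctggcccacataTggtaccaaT
MAL32 coding: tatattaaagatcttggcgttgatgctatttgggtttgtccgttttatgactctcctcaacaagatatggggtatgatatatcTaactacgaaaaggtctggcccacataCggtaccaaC
Of all 50-base stretches, 83.6% of MAL12 and 84.1% of MAL32 occur elsewhere in the genome, against 8.08% of IMA1, 5.74% of MAL33 and 0 of MAL11, MAL13, MAL31 and SUC2. The sources used here do not say how a read with more than 1 match was counted. The low values of MAL12 and MAL32 therefore cannot be read as low expression. Of the 50-base stretches, 279 of MAL12 and 272 of MAL32 occur nowhere else, so some reads can be assigned to 1 gene. How many of the counted reads were of that kind was not tested.

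Over all 8 libraries, MAL32 had 80 reads and MAL12 had 53. MAL32 had 1.35 and 0 scaled reads in GPD-SIR3, against 9.33 and 6.04 in GPD-SIR3-A2Q, 3.49 and 6.30 in SIR3Δ, and 5.62 and 9.996 in WT. The GPD-SIR3 libraries held 3 MAL32 reads together, against 25 in GPD-SIR3-A2Q, 22 in SIR3Δ and 30 in WT. Per depth, GPD-SIR3 stood at 12.5% of WT (95% exact interval 2.43% to 40.0%), at 11.9% of GPD-SIR3-A2Q (2.31% to 39.1%) and at 19.7% of SIR3Δ (3.77% to 65.4%). These intervals cover counting error only, and replicates of a strain differed by more than counting error. With no filter, limma's adjusted p for MAL32 in GPD-SIR3 was 0.0893 against WT, 0.0944 against GPD-SIR3-A2Q and 0.105 against SIR3Δ, none of them a call.

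MAL12 had 1.80 and 1.00 scaled reads in GPD-SIR3, against 2.92 and 5.37 in GPD-SIR3-A2Q, 4.26 and 4.84 in SIR3Δ, and 3.46 and 3.53 in WT. GPD-SIR3 was the lowest strain again, with 5 reads against 13 in GPD-SIR3-A2Q, 21 in SIR3Δ and 14 in WT. Its level was 44.5% of WT (95% exact interval 12.5% to 131%), 38.3% of GPD-SIR3-A2Q (10.7% to 114%) and 34.3% of SIR3Δ (10.1% to 93.5%). The interval against SIR3Δ leaves out equality and the other 2 do not, but these intervals too cover counting error only. With no filter, limma's adjusted p for MAL12 in GPD-SIR3 was 0.607 against WT, 0.446 against GPD-SIR3-A2Q and 0.163 against SIR3Δ, none of them a call.

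IMA1 (YGR287C, chromosome VII, 1067222 to 1068991, minus strand, 21.9 kb from the right end) encodes an isomaltase, related in sequence to maltase (75.2% identity to MAL12). It had 72.0 and 98.0 scaled reads in GPD-SIR3, against 78.1 and 71.8 in GPD-SIR3-A2Q, 75.6 and 54.7 in SIR3Δ, and 69.2 and 70.6 in WT. GPD-SIR3 held the highest single library but overlapped GPD-SIR3-A2Q and SIR3Δ, and its lower library lay just above WT. Its log2 fold change was 0.26 ± 0.24 SE against WT (limma, adjusted p = 0.826) and 0.38 ± 0.24 SE against SIR3Δ (limma, adjusted p = 0.389).

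SUC2 (YIL162W, chromosome IX, 37385 to 38983, plus strand, 37.4 kb from the left end) encodes invertase. It had 820.1 and 756 scaled reads in GPD-SIR3, against 774 and 898 in GPD-SIR3-A2Q, 829 and 918 in SIR3Δ, and 703 and 843 in WT. Each strain overlapped WT. The difference from WT was 0.03 ± 0.14 SE in GPD-SIR3 (95% interval -0.28 to 0.35; limma, adjusted p = 0.977), 0.12 ± 0.14 SE in GPD-SIR3-A2Q (limma, adjusted p = 0.893) and 0.18 ± 0.14 SE in SIR3Δ (95% interval -0.13 to 0.49; limma, adjusted p = 0.799).

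Per kilobase of gene, SUC2 stood apart from the others in every group. In WT it had 439 and 527 scaled reads per kb. Next came 4 genes, MAL33 (60.8 and 102), MAL13 (72.1 and 83.5), MAL31 (79.2 and 63.7) and MAL11 (70.3 and 39.4 per kb), and then IMA1 (39.1 and 39.9 per kb). MAL33, MAL13 and MAL31 overlapped one another, MAL11 overlapped MAL33 and MAL31 but not MAL13, and the higher IMA1 library lay within the range of MAL11. MAL32 (3.20 and 5.70) and MAL12 (1.97 and 2.01 per kb) came last, read sharing aside. Averaged over all 8 libraries, SUC2 was above 73.4% of tested genes per kb and MAL13 above 16.4%, MAL33 above 15.8%, MAL31 above 9.83%, MAL11 above 8.72% and IMA1 above 7.05%, with the median tested gene at 222 per kb.

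The 2 MAL loci hold counterparts of each role at different chromosome ends, so each library gives a ratio of the chromosome II gene to its chromosome VII counterpart, in scaled reads. MAL33 over MAL13 was 0.245 and 0.633 in GPD-SIR3, against 1.22 and 1.07 in GPD-SIR3-A2Q, 1.31 and 1.02 in SIR3Δ, and 0.835 and 1.21 in WT. GPD-SIR3 did not overlap any other strain (exact permutation test, two-sided, p = 0.333, the smallest that 2 against 2 allows). MAL31 over MAL11 was 0.796 and 0.528 in GPD-SIR3, against 0.734 and 1.36 in GPD-SIR3-A2Q, 1.33 and 1.36 in SIR3Δ, and 1.12 and 1.61 in WT. GPD-SIR3 was lower than SIR3Δ and WT (exact permutation p = 0.333 each) and overlapped GPD-SIR3-A2Q (exact permutation p = 0.667). The coding sequences of these pairs differ enough to be counted apart (72.3% identity for MAL33 and MAL13, 67.3% for MAL31 and MAL11).

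**Figure D2:**
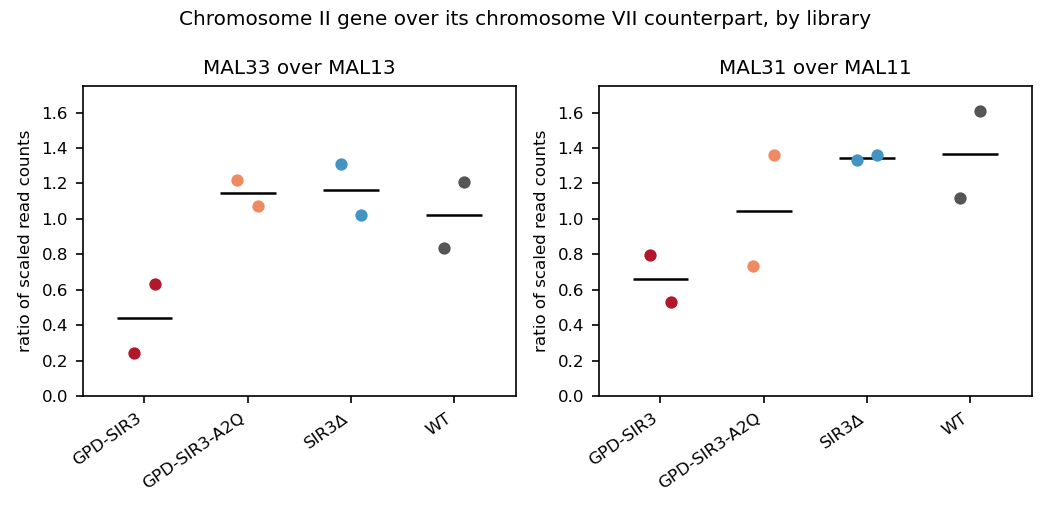
Ratio of scaled read counts (vertical axis) of MAL33 to MAL13 and of MAL31 to MAL11 in each library, with a bar at the mean of the strain; the left point of a pair is library 1. For MAL33 over MAL13 the GPD-SIR3 points, 0.245 and 0.633, lie below all 6 others.

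Taking the 6 tested genes as a group, none was called in limma for GPD-SIR3 against WT, GPD-SIR3-A2Q against WT, SIR3Δ against WT or GPD-SIR3 against GPD-SIR3-A2Q, beside the shares of all genes given above. At an unadjusted p below 0.05, 2 were lower in GPD-SIR3 than in WT (MAL31 and MAL33; 4.29% of all genes), 1 in GPD-SIR3-A2Q than in WT (MAL31; 5.08%), 0 in SIR3Δ than in WT (6.65%) and 1 in GPD-SIR3 against GPD-SIR3-A2Q (MAL33; 2.70%). On recovered whole reads, edgeR's quasi-likelihood test called 0 of the 6 in these 4 comparisons, with 1.39%, 0.786%, 0.877% and 1.39% of all genes called. DESeq2 called MAL33 (-1.67, adjusted p = 7.41e-04) and MAL31 (-1.37, adjusted p = 0.00137) in GPD-SIR3 against WT (2.23% of all genes) and MAL33 (-1.88, adjusted p = 6.48e-05) in GPD-SIR3 against GPD-SIR3-A2Q (2.10%). It called 0 of the 6 in GPD-SIR3-A2Q against WT (1.32%) and in SIR3Δ against WT (1.53%).

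For GPD-SIR3 against SIR3Δ, limma called MAL33 alone (4.20% of all genes), with MAL31 and MAL33 lower at an unadjusted p below 0.05 (6.25%). There edgeR called MAL33 (-1.90, adjusted p = 0.0321) and MAL31 (-1.29, adjusted p = 0.0413; 4.55% of all genes). DESeq2 called both as well (MAL33 -1.88, adjusted p = 2.47e-05, and MAL31 -1.30, adjusted p = 0.00134; 6.72%). The median log2 fold change of the 6 was -0.23 here, against 0.13 over all genes. It was -0.29 against 0.04 over all genes in GPD-SIR3 against WT, and -0.07 in both for SIR3Δ against WT. Scaling by the TMM method moved the median of all genes from 0.13 to 0.02 in GPD-SIR3 against SIR3Δ, and the calls over all genes from 106 lower and 124 higher to 153 lower and 101 higher. Under it MAL33 stood at -1.93 (limma, adjusted p = 0.0282) and MAL31 at -1.26 (limma, adjusted p = 0.0387).

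The libraries of GPD-SIR3 and WT did not overlap for 3 of the 6 genes that were lower and 1 that was higher in GPD-SIR3, where 13.3% and 20.5% of all genes did not overlap in those directions. GPD-SIR3 was lower without overlap for 3 of 6 genes against GPD-SIR3-A2Q (13.0% of all genes), namely MAL31, MAL33 and MAL13. Against SIR3Δ this held for 4 of 6 (14.0%), the same 3 and SUC2 (-0.15 ± 0.14 SE). GPD-SIR3 was higher without overlap for 0 of 6 in both, beside 28.0% and 37.0% of all genes. GPD-SIR3-A2Q and WT did not overlap for 1 gene lower and 1 higher (23.3% and 16.5% of all genes), and SIR3Δ and WT overlapped for all 6 (28.3% lower and 11.2% higher over all genes).

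**Figure D3:**
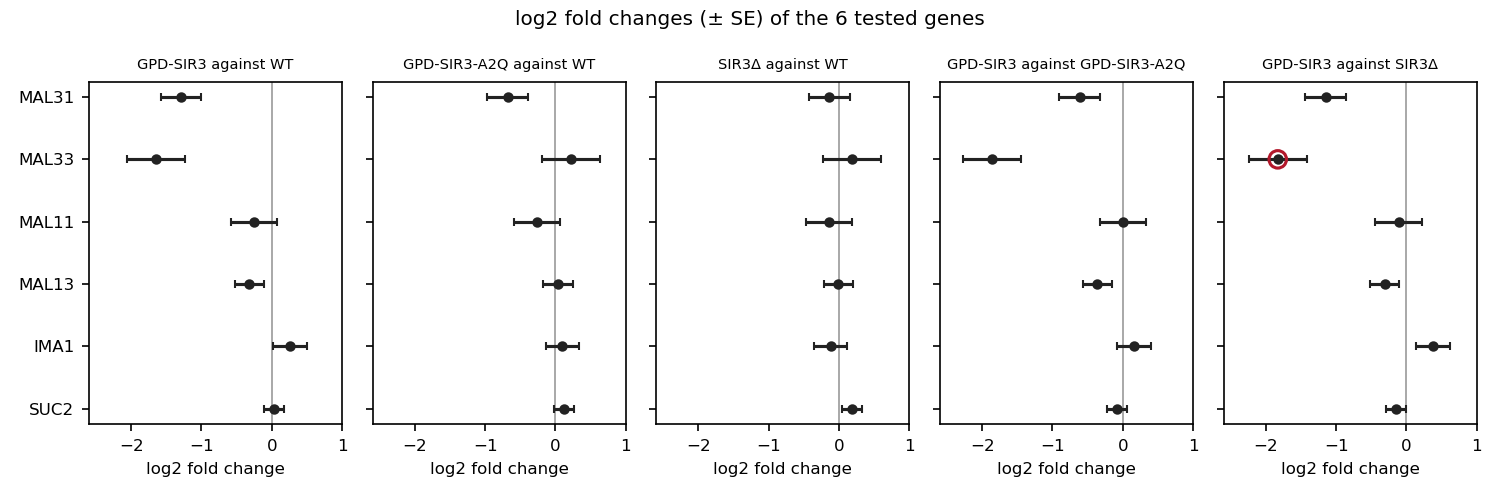
Log2 fold change with its SE (horizontal axis, limma) of the 6 tested genes in the 5 comparisons; a red ring marks a limma adjusted p below 0.05. MAL33 in GPD-SIR3 against SIR3Δ (-1.83) has the ring, and MAL31 and MAL33 lie left of 0 in GPD-SIR3 against WT (-1.29 and -1.65).

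Neighbouring genes at the same ends give the surroundings of the members. Within 50 kb of the right end of chromosome II lie 23 genes, 18 of them tested and 16 of those not in the group. Of the 16, PHO89, a sodium-phosphate cotransporter gene 14.7 kb from the end and the next tested gene inward of MAL33, was called in GPD-SIR3 against WT. PHO89 averaged 324 ± 66.6 in GPD-SIR3, 1024 ± 14.2 in GPD-SIR3-A2Q, 1624 ± 311 in SIR3Δ and 2096 ± 61.6 in WT (SD, n = 2 each). It fell by 2.70 on the log2 scale in GPD-SIR3 against WT (limma, adjusted p = 4.65e-05) and by 1.03 in GPD-SIR3-A2Q against WT (limma, adjusted p = 0.0284). It was also lower in GPD-SIR3 than in SIR3Δ (-2.32; limma, adjusted p = 5.16e-05). Inward of it, PCA1 at 16.7 kb, a cadmium transporter gene, stood at -0.31 ± 0.16 SE in GPD-SIR3 against WT (limma, adjusted p = 0.655). VBA2, a vacuolar amino acid transporter gene 24.8 kb from the end, was called lower in SIR3Δ against WT (-1.53; limma, adjusted p = 0.0273) and, opposite to MAL33 and PHO89, higher in GPD-SIR3 against SIR3Δ (1.29; limma, adjusted p = 0.0223). MAL31, MAL33 and PHO89 were the outermost tested genes of this end, from 8.71 to 14.7 kb, and had its lowest log2 fold changes in GPD-SIR3 against WT.

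Within 50 kb of the right end of chromosome VII lie 20 genes, 17 tested and 14 of those not in the group. COS6, of the subtelomeric COS family, at 8.21 kb and thus outward of MAL11, was the gene called in GPD-SIR3 against WT. Read sharing was not measured for COS6 or the other neighbouring genes. COS6 averaged 51.4 ± 0.519 in GPD-SIR3, 344 ± 4.44 in GPD-SIR3-A2Q, 437 ± 27.9 in SIR3Δ and 289 ± 8.49 in WT (SD, n = 2 each), and its log2 fold change in GPD-SIR3 against WT was -2.47 ± 0.14 SE (limma, adjusted p = 2.22e-05). MAL11, MAL13 and IMA1, 15.1 to 21.9 kb from that end, were not called, and BIO2, a biotin synthase gene at 26.0 kb, stood at 0.04 ± 0.14 SE. COS6 was also called lower in GPD-SIR3 against each of GPD-SIR3-A2Q and SIR3Δ, and SCW4, a cell wall protein gene 41.0 kb from the end, was called higher in GPD-SIR3 against SIR3Δ (0.74; limma, adjusted p = 0.00359). Around SUC2, 16 genes lie within 50 kb of the left end, 12 tested and 11 of those not in the group. YIL169C, 23.1 kb from the end, was called higher than WT in all 3 other strains (1429 ± 76.8 in GPD-SIR3, 2006 ± 410 in GPD-SIR3-A2Q, 3420 ± 810 in SIR3Δ and 210 ± 35.7 in WT; SD, n = 2 each), and SUC2 was not.

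**Figure D4:**
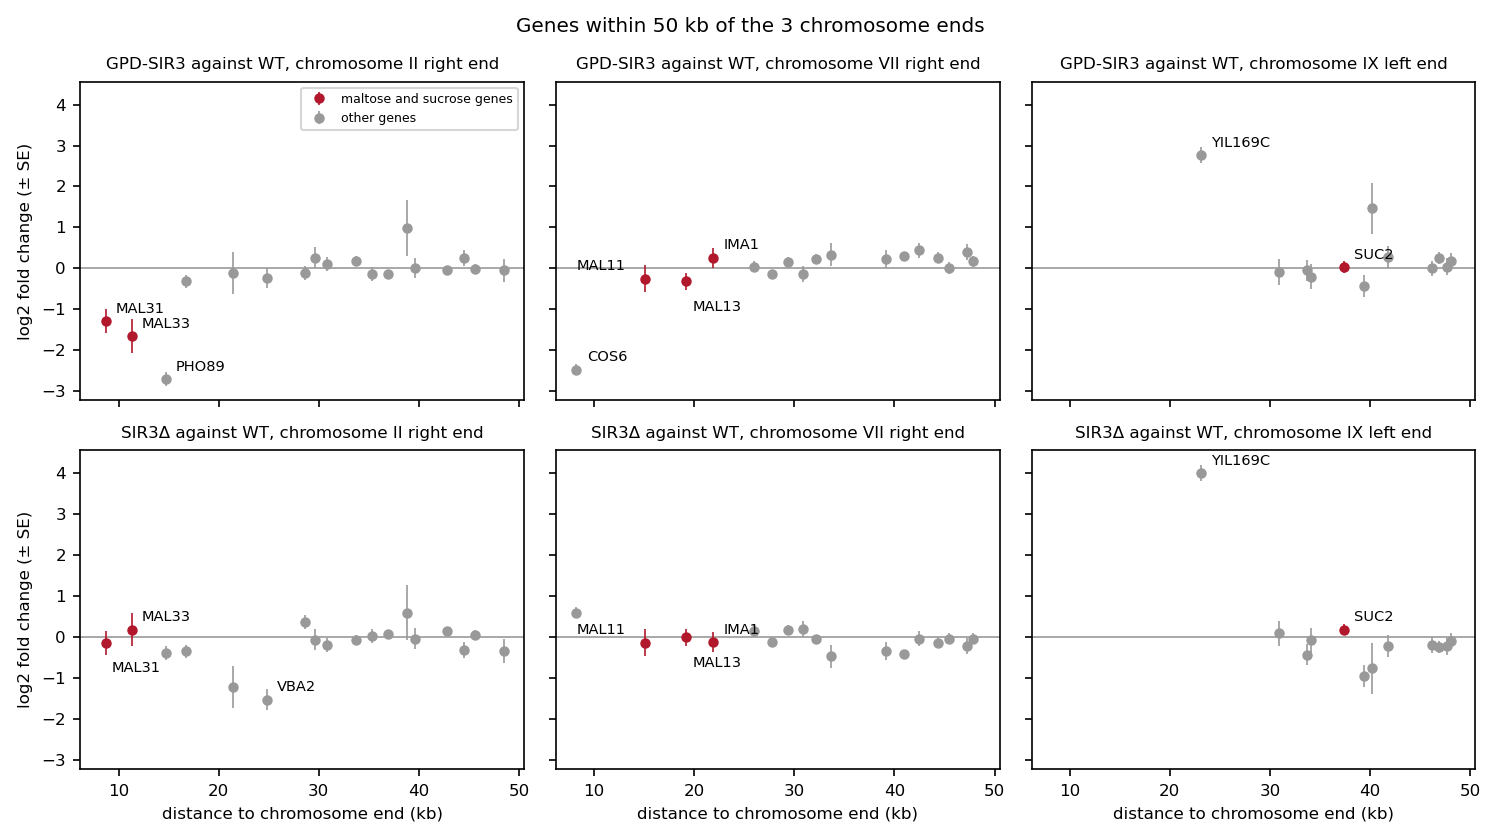
Log2 fold change with its SE (vertical axis, limma) against distance to the chromosome end in kb (horizontal axis) for tested genes within 50 kb of the 3 ends, for GPD-SIR3 against WT (top) and SIR3Δ against WT (bottom). Red points are the maltose and sucrose genes and grey points their neighbours; in the top row MAL31 (-1.29), MAL33 (-1.65) and PHO89 (-2.70) lie together below 0 at the chromosome II end.

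Non-coding transcripts within 1000 bases of the 8 genes numbered 15, of which 5 passed the filter. An overlap with a member was found for 3, each on the opposite strand, at MAL33 (14 reads over all libraries), MAL32 (9 reads) and MAL13 (50 reads), all too low to test. SUT024, upstream of MAL33 on its strand, averaged 0 in GPD-SIR3, 5.15 in GPD-SIR3-A2Q, 4.12 in SIR3Δ and 10.9 in WT (74 reads in all). XUT0095, downstream of MAL32, averaged 0.225 in GPD-SIR3, 8.18 in GPD-SIR3-A2Q, 0.969 in SIR3Δ and 7.34 in WT (63 reads in all). SUT176, upstream of SUC2 on its strand, averaged 88.9 in GPD-SIR3, 66.4 in GPD-SIR3-A2Q, 102 in SIR3Δ and 84.3 in WT, a log2 fold change of 0.08 in GPD-SIR3 against WT. These 3 were named after their values were seen. Counting all 15, GPD-SIR3 had the lowest mean for 4 of the 6 transcripts beside the chromosome II genes. It had the lowest for 4 of the 6 beside the chromosome VII genes and 0 of the 3 beside SUC2. Most of the 15 were at a few reads. They are not all separate, as XUT0095 lies within 2F-340, and XUT0565 and XUT0566 lie within 7F-475. The share over all non-coding transcripts was not counted, so these counts are not read as a result.

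Other genes of these pathways gave no limma call. Of 8 relatives (other isomaltase genes, alpha-glucoside transporter genes and homologues of the activator), 4 were tested and limma, edgeR and DESeq2 called none in any of the 5 comparisons, nor had any an unadjusted p below 0.05. YPR196W, a putative maltose activator gene 15.3 kb from its end, had 93.2 ± 2.60 in GPD-SIR3 and 88.9 ± 0.188 in WT (SD, n = 2 each; 0.07 ± 0.19 SE). IMA5, an isomaltase gene 24.3 kb from its end, had 35.0 ± 5.63 in GPD-SIR3 and 30.8 ± 6.30 in WT (0.18 ± 0.45 SE). IMA3, IMA4 and MPH2 were listed at 0 in all libraries and MPH3 at a mean of at most 2.71. Read sharing was not measured for these genes, so such values cannot be read as absent or low expression.

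Of 19 genes of glucose sensing and repression, all tested, limma called 0 in each of the 5 comparisons. HXK2, a hexokinase needed for repression, stood at -0.16 ± 0.12 SE in GPD-SIR3 against WT and TUP1, a corepressor of Mig1, at 0.35 ± 0.12 SE (limma, adjusted p = 0.393), the 1 gene there with an unadjusted p below 0.05. In that comparison edgeR and DESeq2 called 0. In GPD-SIR3 against SIR3Δ, edgeR and DESeq2 each called 2 lower, MTH1, a corepressor of hexose transporter genes (25.1 ± 5.56 in GPD-SIR3 and 56.6 ± 2.80 in SIR3Δ), and HXK2. MIG1 (0.38 ± 0.15 SE) and TUP1 (0.39 ± 0.12 SE) were higher there at an unadjusted p below 0.05. MTH1 and MIG1 were named after their values were seen.

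Of 9 SWI/SNF subunits, parts of a chromatin remodeller needed for SUC2 transcription, all tested, limma, edgeR and DESeq2 called 0 in each comparison. SNF2, the catalytic subunit, stood at 0.07 ± 0.16 SE and TAF14 at -0.43 ± 0.14 SE in GPD-SIR3 against WT (limma, adjusted p = 0.353), TAF14 being the 1 with an unadjusted p below 0.05. In GPD-SIR3 against SIR3Δ, SNF2 (0.38 ± 0.16 SE), SNF12 (0.49 ± 0.19 SE) and SWP82 (0.38 ± 0.16 SE) were higher at an unadjusted p below 0.05, SNF12 and SWP82 being named after their values were seen. Of 19 glucose-repressed genes of other pathways, 17 were tested, and limma and edgeR called 0 in each comparison. HXT2, a glucose transporter gene, stood at -0.06 ± 0.17 SE and HXT4, another, at -0.80 ± 0.24 SE in GPD-SIR3 against WT (limma, adjusted p = 0.328). There, 3 genes had an unadjusted p below 0.05, HXT4, HXK1 (-2.21 ± 0.53 SE, 15.1 kb from its end) and ADR1 (1.17 ± 0.37 SE). HXK1 and ADR1 were named after their values were seen, and DESeq2 called HXT4 lower and ADR1 higher. HXK1 stood at -1.50 ± 0.53 SE in GPD-SIR3-A2Q against WT (limma, adjusted p = 0.606). In GPD-SIR3 against SIR3Δ, DESeq2 also called HXT4 lower (limma -0.64 ± 0.24 SE) and ADR1 higher (limma 1.19 ± 0.37 SE), and in GPD-SIR3-A2Q against WT it called HXT4 lower (limma -1.15 ± 0.24 SE).

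Across the 8 libraries, MAL33 correlated with MAL13 (r = 0.75) and MAL31 (r = 0.69), MAL31 with MAL13 (r = 0.64), and MAL31 with MAL11 (r = 0.43), while SUC2 and MAL11 ran opposite (r = -0.65; Pearson, log2 values, n = 8 libraries). Such values describe 8 libraries that share 4 strains. The most alike of 5419 genes to MAL33 were SPS4 (r = 0.97), a sporulation gene, and YOR389W (r = 0.96), 15.2 kb from its end. MAL31 was most like the purine synthesis genes ADE5,7 (r = 0.98) and ADE17 (r = 0.97), and MAL11 was most like YHR022C (r = 0.97) and RGI1 (r = 0.96). MAL13 was most like ENB1 and TBS1 (r = 0.92 each), IMA1 like GGA2 and FCY21 (r = 0.95 each), and SUC2 like the amino acid permease gene TAT2 (r = 0.95) and ESBP6 (r = 0.94).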

How the data were processed

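Values were read for 8 libraries of total RNA, 2 per strain, grouped and numbered by their titles; the SOLiD libraries were paired-end, per the labels' protocols. TopHat 1.4.1 and build R64 are named in the submitters' processing notes; for the counting tool and its handling of multiple matches those sources give nothing. The authors deposited plain counts for GPD-SIR3 2 and, for 7 libraries, a signal that is the count multiplied by a library factor; 16 further columns were not used. Whole reads were recovered for 100% of values (tolerance 0.01).

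The design allowed for edgeR on plain counts and for limma on scaled values, so limma 3.58.1 (trend, R 4.3.3) was run on log2(value + 1) for the 5473 genes with a value of 10 or more in 2 or more libraries; all 4 groups entered one fit. A log2 fold change on this scale understates low genes. edgeR 4.0.16 and DESeq2 1.42.0 on whole reads, and the alternatives named in the closing section, were tried. Non-coding transcripts were fitted separately. The fits were also run on simulated data, with an outcome that is not reported here. Replicates differed by more than counting error (chi-square over degrees of freedom 16.2 to 43.0).

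Named were the 8 genes, up to 4 called members of each list by adjusted p (or the 2 highest in level, where none), called neighbours, and the 2 most alike genes (mean at least 10). The members and lists were chosen with earlier results of these data known. All 8 genes had the coordinates of the R64 reference. Sequence identity and 50-base sharing came from that reference.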

Additional observations from a re-analysis of the deposited data

How the results depend on the processing

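The count of these genes called changed with the tool in 3 comparisons. For GPD-SIR3 against SIR3Δ it was 1 in limma, 0 with a filter on the mean of at least 50, 0 with the 2 strains fitted alone, and 2 with TMM scaling, edgeR or DESeq2. For GPD-SIR3 against WT it was 0 in limma, 2 in DESeq2 and 1 with a replicate block. For GPD-SIR3 against GPD-SIR3-A2Q it was 0 in limma, 1 in DESeq2 and 1 with the block. Leaving out 1 library at a time gave 0 to 1 in each of these 3, and limma's adjusted p for MAL33 in GPD-SIR3 against SIR3Δ ran from 0.00428 to 0.177. MAL31 fell on either side of the threshold in that comparison, depending on which library was left out. The cause of these shifts was not tested.

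With the replicate block, limma's adjusted p for MAL33 was 0.0431 against WT, 0.0246 against GPD-SIR3-A2Q and 0.0120 against SIR3Δ, all in GPD-SIR3. The labels do not say that the numbers mark a batch or day, so the block was kept as an alternative. Same-numbered libraries deviated together by more than 0.1 in 2 of 6 pairs of strains (correlations -0.03 to 0.55). The source of these correlations was not tested.

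No called value changed sign. Uncalled values near 0 did: MAL13 in SIR3Δ against WT, -0.01, was 0.06 with TMM, 0.06 in edgeR and 0.07 in DESeq2, and SUC2 in GPD-SIR3 against WT, 0.03, was -0.01 in DESeq2. Leaving out libraries gave, in GPD-SIR3 against WT, MAL11 -0.67 to 0.16 and SUC2 -0.10 to 0.16. In GPD-SIR3-A2Q against WT it gave MAL11 -0.67 to 0.16, MAL13 -0.16 to 0.24, MAL33 -0.16 to 0.59 and SUC2 -0.02 to 0.25. In SIR3Δ against WT it gave MAL11 -0.56 to 0.27, MAL31 -0.30 to 0.01, IMA1 -0.35 to 0.11, MAL13 -0.16 to 0.13 and MAL33 -0.19 to 0.55. In GPD-SIR3 against GPD-SIR3-A2Q it gave IMA1 -0.06 to 0.38 and SUC2 -0.19 to 0.02, and in GPD-SIR3 against SIR3Δ MAL11 -0.51 to 0.29.

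Over all genes, DESeq2 called 122 where limma called 72 in GPD-SIR3 against WT, 72 against 41 in GPD-SIR3-A2Q against WT, 84 against 53 in SIR3Δ against WT, and 368 against 230 in GPD-SIR3 against SIR3Δ. The replicate block gave 111 and 425, and the 2 strains alone 40 and 125, in the first and last of these. Leaving out 1 library gave 38 to 63, 16 to 45, 25 to 58 and 123 to 366 in the same 4, and 43 to 82, against 80, in GPD-SIR3 against GPD-SIR3-A2Q. The pair of libraries a strain and the low counts of MAL12 and MAL32 limit what can be detected.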
